A study of Mus musculus with 9 samples.

Results

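The genes described here are 28 genes of cholesterol synthesis, uptake and sterol sensing in mouse liver. They were taken from the count table by gene symbol, as 28 of the 55401 genes listed, with earlier results of these data known. All 28 passed the filter on low counts, which left 15717 genes to test. They comprise 8 genes of the isoprenoid steps (Acat2, Hmgcs1, Mvk, Pmvk, Mvd, Idi1, Fdps and Ggps1), 11 of the squalene and sterol steps (Fdft1, Sqle, Lss, Cyp51, Tm7sf2, Msmo1, Nsdhl, Hsd17b7, Ebp, Sc5d and Dhcr7), 4 of sterol sensing (Srebf2, Scap, Insig1 and Insig2) and 5 of transport, efflux, uptake and storage (Stard4, Abca1, Abcg1, Soat2 and Npc1l1).

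Whole-liver RNA was sequenced from 9 female mice in 3 groups of 3: healthy livers, untreated hepatocellular carcinoma (HCC) livers and miR-22-treated HCC livers. All mice were wild type in genotype and 6 weeks old when obtained. The labels give the strain as C57BL/6 in the sample fields and as FVB/N in the growth protocol and the design text. Healthy mice had no treatment. For HCC, plasmids with a sleeping beauty transposon were injected by tail vein under pressure, so that hepatocytes took up a myristoylated AKT driven by the EF1α promoter and an activated Nras driven by the Caggs promoter. At 1 week after the oncogenes, mice in both HCC groups received an adeno-associated virus of serotype 8, either blank (untreated HCC) or expressing miR-22 from a CMV promoter (miR-22-treated HCC). The protocol also lists a β-catenin plasmid, whereas the design text names RAS and AKT only for these livers. Livers were taken 5 weeks after the oncogenes, 4 weeks after the virus. Healthy mice had neither the injection nor the virus, so tumor, plasmid injection and blank virus cannot be told apart in a comparison with healthy liver. In whole liver, fewer cells of a type and less RNA per cell cannot be told apart either.

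Cholesterol is built from acetyl-CoA by way of mevalonate, isoprenoid diphosphates, squalene and lanosterol, and liver is a main site of that synthesis. The enzymes are switched on together by sterol regulatory element-binding protein 2 (SREBP-2, from Srebf2). When sterols are scarce, its escort Scap carries it from the endoplasmic reticulum to be cut free as a transcription factor, and when sterols are plentiful Insig1 and Insig2 hold Scap back. Hepatocytes also export cholesterol to lipoproteins and bile, and store it as esters.

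The mature sequence of miR-22-3p, the arm usually meant by miR-22, is printed to show the seed, bases 2 to 8 in capitals, by which a microRNA pairs with the 3′ untranslated region (UTR) of a transcript. It is the RefSeq mature sequence at chr11:75463772-75463793 on the plus strand of GRCm38.p6.
mmu-miR-22-3p: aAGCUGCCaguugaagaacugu

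Its 7-base match, GGCAGCT, stood in the annotated 3′ UTR of 3 of the 28 genes (10.7%), Abcg1, Lss and Mvk, against 2287 of 13559 tested genes with a 3′ UTR (16.9%). The median 3′ UTR was 1533 bases in the 28 genes and 1339 bases in the tested genes. The sites are shown with the match in capitals, each on the plus strand of GRCm39, at chr17:31336194-31336222, chr10:76392716-76392744 and chr5:114599533-114599561.
Abcg1: ttactttcatgGGCAGCTactctctcttt
Lss: agcacccacagGGCAGCTcacaatctact
Mvk: ggagggcagatGGCAGCTgggctaggggg
A match is a stretch of letters, not a measured site. None of the 3 genes passed the call rule between miR-22-treated and untreated HCC. Their log2 changes were -0.38 for Abcg1, -0.06 for Lss and 0.11 for Mvk.

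Promoter windows of 300 bases around the start (RefSeq, GRCm38.p6) were at hand for 22 of the 28 genes, as 28 windows. The core of the sterol regulatory element, searched as TCACNCCAC on both strands, was in 1 of the 28 windows (3.57%), that of Hmgcs1, against 1.24% of all 32851 windows. CCAAT, the box of NF-Y, was in 19 windows (67.9%, against 37.4% of all and 37.4% of those of tested genes). GGGCGG, the box of Sp1, was in 22 (78.6%, against 35.7% and 58.0%). CACGTG, an E-box that reads alike on both strands, was in 7 windows of 6 genes (25%, against 7.15% and 9.45%): Abca1, Dhcr7, Hsd17b7, Insig1, Sc5d and Scap. Overlapping windows of Scap hold the same E-box, which was counted in each. Overlaps between these motifs were not separated. The element in Hmgcs1 (plus strand, chr13:119690204-119690232) is printed as the only such match, and the E-boxes of Insig1, Scap and Sc5d are printed because the results below turn on these 3 genes, with the motif in capitals. The E-boxes lie at chr5:28071301-28071326 (Insig1, plus), chr9:110333306-110333331 (Scap, plus) and chr9:42264383-42264408 (Sc5d, minus).
Hmgcs1: cgtcaccgtcTCACCCCACttcccaggtc
Insig1: tgggtgaggtCACGTGgctccggtgg
Scap: ccgccgggagCACGTGtggagggcgg
Sc5d: acgcggcgacCACGTGaccgccgcga

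Counts summed to between 16664659 and 23908392 per library. Values below are normalized counts, scaled to the mean effective library by edgeR's TMM factors, which were 0.8655 to 0.8721 in healthy, 1.121 to 1.223 in untreated and 0.942 to 1.029 in miR-22-treated livers. Akt1 lay at 2002 to 2105 in healthy, 22700 to 32454 in untreated and 13027 to 21424 in treated livers, and Nras at 521 to 575, 1228 to 1499 and 1034 to 1073. A gene was called when edgeR's quasi-likelihood test gave an adjusted p under 0.05 and a fold over 1.5. The labels do not say which libraries share a cage, day or run. Summed hepatocyte markers (Alb, Ttr, Apoa1, Hnf4a, Cps1 and Tat) ran from 2335000 to 2427000 in healthy, 947700 to 1178000 in untreated and 1417000 to 1757000 in treated livers.

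In untreated HCC, most of the route fell. Of the 28 genes, 16 were lower than in healthy liver, where 18.1% of all tested genes were lower, and 3 were higher, where 22.7% were. The other 9 did not pass. The median log2 change was -0.63 over the 28 genes and 0.01 over all genes tested. The fall was called in 9 of the 11 squalene and sterol genes (median -1.15), in 3 of the 8 isoprenoid genes (median -0.48), in 2 of the 4 sensing genes and in 2 of the 5 transport and storage genes. Of the 16, 11 were called under every alternative run and 5 (Mvk, Sqle, Lss, Cyp51 and Soat2) were not. Of the 3 higher genes, Insig2 and Npc1l1 were and Abcg1 was not. With libraries scaled to their totals alone, 11 members were lower and 4 higher, while the median of all genes moved to 0.43, and no called member turned direction.

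**Figure D1:**
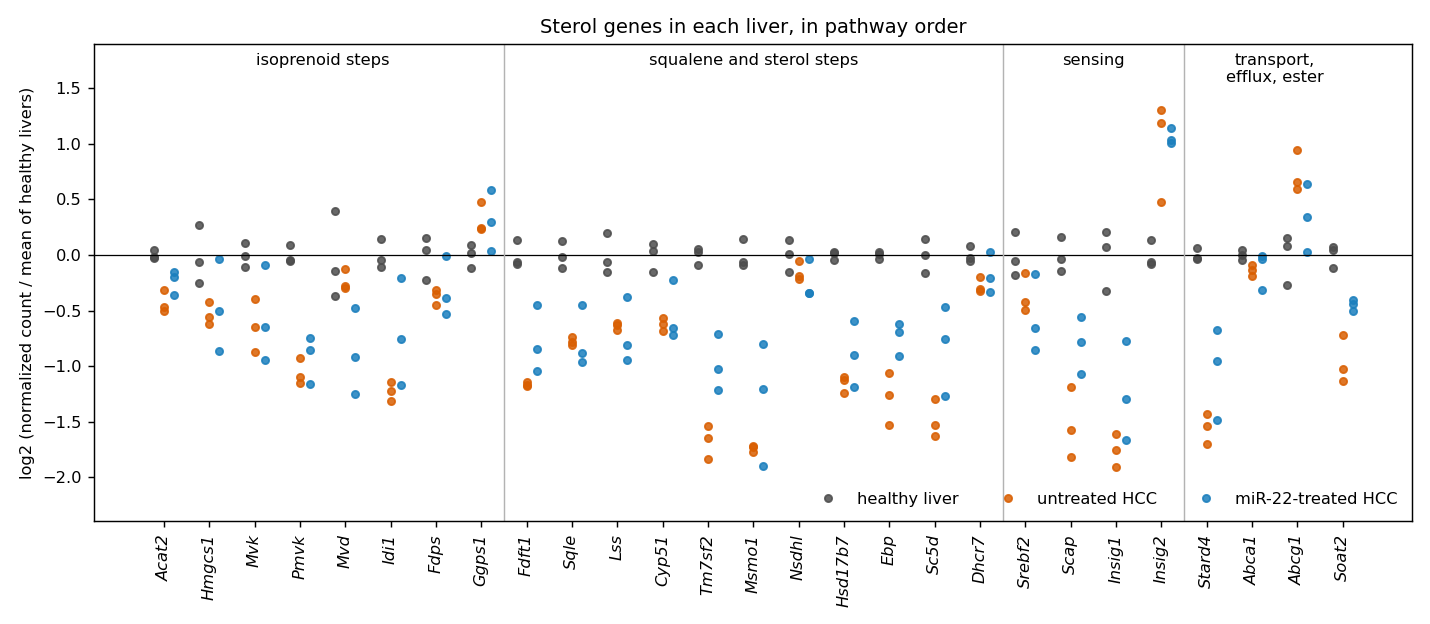
Each point is 1 liver, plotted as log2 of its normalized count over the mean of the 3 healthy livers, for 27 of the 28 genes in pathway order (Npc1l1 is left out because 2 healthy livers had no count). Untreated HCC livers lie mostly under the healthy livers in the squalene and sterol block, and above them for Insig2. In that block 9 of 11 genes were called lower in untreated HCC, where 18.1% of all tested genes were.

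The early isoprenoid steps changed unevenly. Pmvk, the phosphomevalonate kinase, had 1287, 1174 and 1168 normalized counts in the healthy livers and 636, 546 and 565 in the untreated HCC livers. Idi1, which isomerizes the first isoprenoid diphosphate, had 2098, 2006 and 2390 in healthy and 925, 871 and 981 in untreated livers. Neither gene's groups overlapped. Pmvk fell by 1.05 on the log2 scale (SE 0.111, edgeR adjusted p 5.36e-06) and Idi1 fell by 1.23 (SE 0.184, adjusted p 1.01e-04). Mvk, the mevalonate kinase, fell by 0.63 (SE 0.186, adjusted p 0.0117), and its call was lost without untreated replicate 2 (-0.52) or healthy replicate 3 (-0.58). With all livers kept, it was also lost with libraries scaled to their totals alone (-0.20), with upper-quartile factors (-0.58), with at least 10 counts asked of every library (-0.58), and with edgeR's glmTreat, which tests against the fold limit itself.

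The other 5 genes of these steps did not pass. Acat2, the cytosolic thiolase, Hmgcs1, the HMG-CoA synthase, and Fdps, the farnesyl diphosphate synthase, had adjusted p under 0.05 but log2 changes of -0.43, -0.53 and -0.37, short of the fold of 1.5. Mvd, the mevalonate diphosphate decarboxylase, was at -0.23 (adjusted p 0.341), with healthy livers spread from 694 to 1181. Ggps1, which makes geranylgeranyl diphosphate for protein prenylation and is off the sterol route, was at 0.32 (adjusted p 0.104).

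From squalene onward, 9 of 11 genes fell. Msmo1, an oxidase that removes methyl groups from the sterol ring after Cyp51 and Tm7sf2 have acted, had 5896, 5026 and 5112 normalized counts in healthy livers and 1563, 1626 and 1612 in untreated HCC livers. Tm7sf2, the reductase of the step before, had 2813, 2538 and 2758 in healthy and 756, 861 and 931 in untreated livers. Sc5d, a late desaturase, had 14323, 12994 and 11623 in healthy and 4486, 4184 and 5298 in untreated livers. In all 3 genes every untreated liver lay far under every healthy liver. Msmo1 fell by 1.74 (SE 0.204, edgeR adjusted p 1.28e-05), to 30.0% of the healthy level. Tm7sf2 fell by 1.67 (SE 0.126, adjusted p 3.69e-07), to 31.4%. Sc5d fell by 1.48 (SE 0.179, adjusted p 1.68e-05), to 35.9%.

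Ebp, the isomerase ahead of Sc5d, fell as well (log2 change -1.27, SE 0.121), as did Fdft1, the squalene synthase (-1.16, SE 0.132), and Hsd17b7, a ketoreductase of methyl-group removal (-1.15, SE 0.125), the largest of their edgeR adjusted p being 1.00e-05. Falls nearer the fold threshold were those of Sqle, the squalene epoxidase (-0.78), Lss, the lanosterol synthase (-0.64), and Cyp51, the lanosterol demethylase (-0.63). The calls of Lss and Cyp51 were lost without single livers, Lss at -0.54 without healthy replicate 1 and Cyp51 at -0.58 without healthy replicate 3. With all livers kept, both were lost with glmTreat and with library totals alone (-0.21 and -0.20), as was Sqle (-0.35 with library totals), and Cyp51 also with upper-quartile factors (-0.58) or with at least 10 counts asked of every library (-0.58).

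Nsdhl and Dhcr7 were the 2 genes of these steps that did not pass. Nsdhl, the dehydrogenase that acts between Msmo1 and Hsd17b7, ran from 1440 to 1759 in healthy and 1376 to 1543 in untreated livers, which overlap (log2 change -0.15, SE 0.106, adjusted p 0.241). Dhcr7, the reductase that follows Sc5d, ran from 2666 to 2929 and from 2222 to 2420 (-0.27, SE 0.102, adjusted p 0.0358, not past the fold). The ratio of Sc5d to Dhcr7 counts within a liver, which does not depend on scaling and was chosen after the values were seen, was 5.37, 4.77 and 3.97 in healthy and 1.85, 1.88 and 2.36 in untreated livers. It was 3.31, 3.19 and 2.44 in treated livers, above every untreated and under every healthy liver.

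Some transcripts share exon sequence with a neighbour, and the libraries do not keep strand. Ctsb covers 24.8% of the exon bases of Fdft1, at a median of 13038 counts against 2074 for Fdft1. Akap9 covers 21.1% of Cyp51, Vps51 10.8% of Tm7sf2 on its own strand, and a long non-coding RNA 20.5% of Mvd. How reads were split there was not tested.

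**Figure D2:**
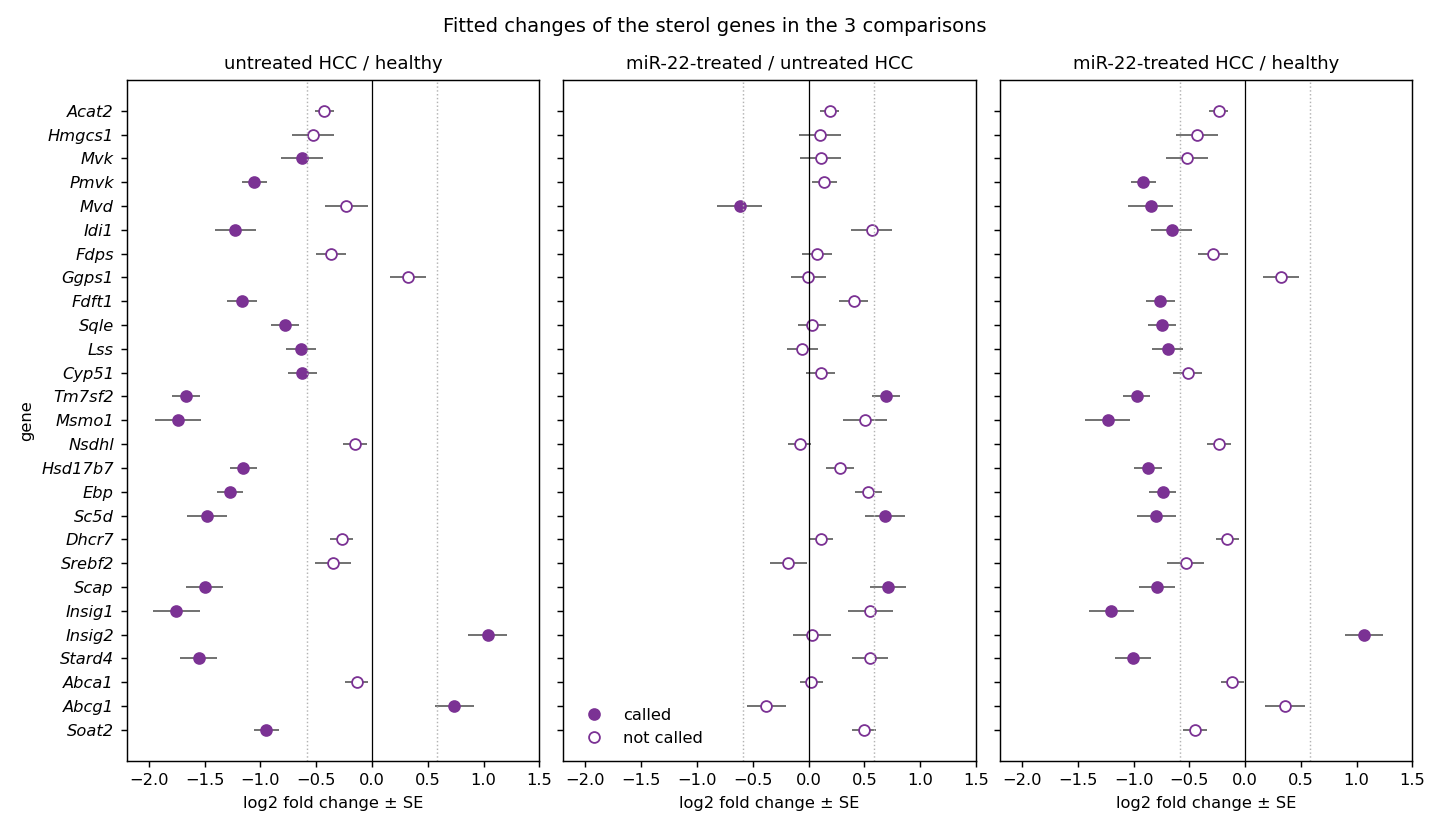
Fitted log2 fold changes with their SE in the 3 comparisons, for 27 genes (Npc1l1 is left out), with filled points for called genes and dotted lines at a fold of 1.5. The 11 squalene and sterol genes lie left of 0 in both outer panels, and 9 of them lie right of 0 in the middle panel.

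The sensing genes moved in both directions. Insig1 (chr5:28276315-28283668, GRCm39), the most abundant of the 28 genes in healthy liver at 151 CPM (counts scaled to library total) per kilobase, had 18985, 17286 and 13115 normalized counts in healthy livers and 4878, 4387 and 5386 in untreated HCC livers. Insig2 (chr1:121181760-121260400), its paralogue, had 2391, 2364 and 2748 in healthy and 6195, 3487 and 5709 in untreated livers. Scap (chr9:110158229-110214024) had 3175, 2770 and 2572 in healthy and 806, 952 and 1247 in untreated livers. No groups overlapped in these 3 genes, with Insig1 and Scap low in HCC and Insig2 high. Insig1 fell by 1.75 (SE 0.207, edgeR adjusted p 1.36e-05), the largest fall of the 28 genes. Scap fell by 1.5 on the log2 scale (SE 0.163, adjusted p 6.85e-06). Insig2 was higher by 1.04 (SE 0.172, adjusted p 2.28e-04), and its level in untreated replicate 3 was nearer to the healthy livers than in the other 2.

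Srebf2 itself, the gene of SREBP-2, overlapped between groups, at 2472, 2057 and 1880 in healthy and 1597, 1911 and 1513 in untreated livers (-0.35, SE 0.163, adjusted p 0.0836). Within a liver Insig1 counts were 7.94, 7.31 and 4.77 times those of Insig2 in healthy livers, and 0.787, 1.26 and 0.943 times in untreated livers.

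**Figure D3:**
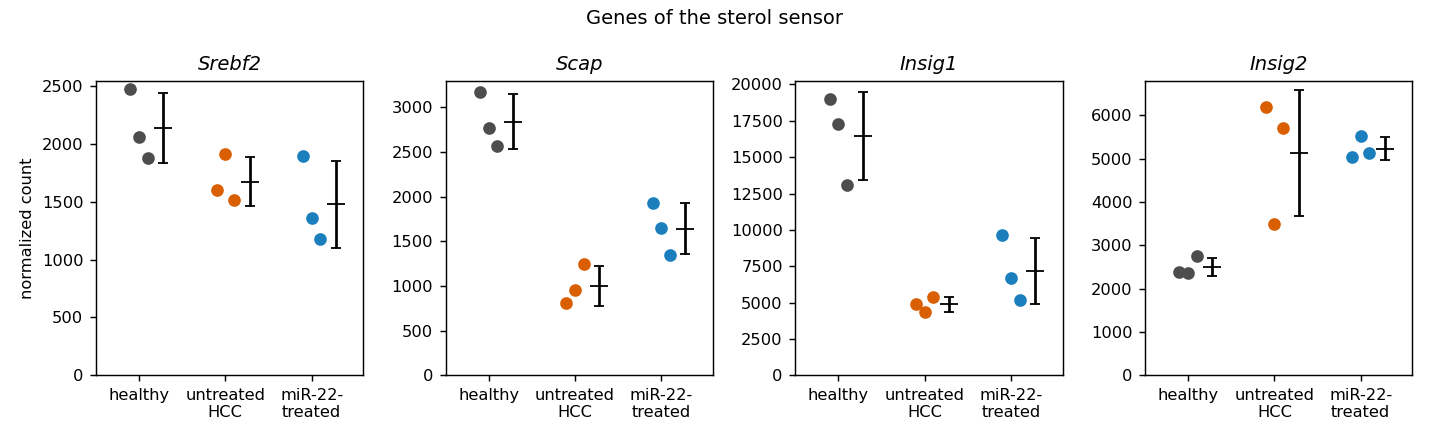
Normalized counts of Srebf2, Scap, Insig1 and Insig2 in each liver (points), with the mean and SD of 3 livers per group (bars). Mean Scap and mean Insig1 are lowest in untreated HCC, although Insig1 overlaps between untreated and treated livers. Insig2 is higher in both HCC groups than in healthy liver, and Srebf2 overlaps between all groups.

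Among transport genes, Stard4, which carries cholesterol between membranes, had 6019, 6455 and 6055 normalized counts in healthy livers and 1901, 2287 and 2126 in untreated livers. Soat2, which stores cholesterol as esters, had 1059, 1081 and 948 in healthy and 505, 469 and 625 in untreated livers. Abcg1, an exporter to lipoproteins that is abundant in macrophages, had 170, 133 and 178 in healthy and 253, 242 and 308 in untreated livers. No groups overlapped in the 3 genes, with only Abcg1 on the high side. Stard4 fell by 1.55 (SE 0.165, edgeR adjusted p 5.68e-06) and Soat2 fell by 0.95 (SE 0.110, adjusted p 1.22e-05), while Abcg1 was higher by 0.74 (SE 0.178, adjusted p 0.00339). The call of Abcg1 was lost with glmTreat (adjusted p 0.206) and that of Soat2 with library totals alone (-0.53). Macrophage markers (Adgre1, Cd68, Csf1r, Clec4f, Vsig4, Cd5l, Trem2 and Gpnmb) summed to 6695 to 8424 in healthy and 6308 to 7434 in untreated livers, with 3 of 8 higher, and their part in the Abcg1 result was not tested.

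Abca1, the exporter that loads apolipoprotein A-I, was at -0.14 (SE 0.103, adjusted p 0.275), with 6068 to 6472 in healthy and 5487 to 5879 in untreated livers. Npc1l1, the cholesterol importer of intestine, was near the lower limit of counting. It had 1 count in 1 healthy liver and none in the other 2, against 84 counts over the 3 untreated livers. Scaled by library, that is a ratio of 59.6 (95% Clopper-Pearson interval 10.4 to 2382, counting error only). The call of Npc1l1 as higher rests on these few counts.

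Hepatocyte markers were lower in untreated HCC than in healthy liver in 6 of 6, at a median log2 change of -1.1. Ductal markers (Krt19, Krt7, Epcam and Sox9) summed to 110 to 193 in healthy and 1651 to 2649 in untreated livers, with 3 of 4 higher. Stellate or fibroblast markers (Lrat, Des, Pdgfrb, Col1a1, Col3a1 and Dcn) summed to 4833 to 5464 and 13710 to 15810, with 3 higher and 2 lower, and endothelial markers (Stab2, Clec4g, Pecam1, Kdr and Cdh5) to 6285 to 7936 and 3927 to 5022, with 3 lower. Of 5 neutrophil markers 2 passed the filter (S100a8 and S100a9, both higher), and Ly6g and Ngp had no count in healthy liver. Neutrophil markers summed to 6.11 to 31.7 in healthy and 135 to 194 in untreated livers, and 6 lymphocyte markers to 91.7 to 122 and 119 to 169, with Cd4 alone higher. The part of these markers in the sterol results was not tested.

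The second comparison set miR-22-treated against untreated HCC livers. The paper reports a smaller tumor load after miR-22, which in whole liver cannot be told apart from other changes with miR-22. Of the 28 genes, 3 were higher in miR-22-treated than in untreated HCC, where 8.32% of all tested genes were higher, and 1 was lower, where 5.47% were. The other 24 did not pass. The median log2 change was 0.11 over the 28 genes and 0.002 over all genes. With no fold threshold, 8 of the 28 were higher and 1 lower at an edgeR adjusted p under 0.05. Over all 15717 genes these counts were 2140 and 1637. Point estimates were above 0 in 21 of 28, but 10 genes, none of them called, turned sign with libraries scaled to their totals alone.

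Tm7sf2, Sc5d and Scap were the genes that rose. Tm7sf2 had 1646, 1323 and 1162 normalized counts in the treated livers, Sc5d 9382, 7686 and 5378, and Scap 1924, 1647 and 1350. Every treated liver lay above every untreated liver for these 3 genes, although for Sc5d the lowest treated liver (5378) and the highest untreated liver (5298) were close. Tm7sf2 was higher by 0.70 (SE 0.124, edgeR adjusted p 0.00209), Scap by 0.71 (SE 0.161, adjusted p 0.00784) and Sc5d by 0.68 (SE 0.176, adjusted p 0.0147). Mvd was the 1 gene that fell, with 642, 376 and 473 in treated against 729, 738 and 822 in untreated livers (-0.62, SE 0.200, adjusted p 0.0408).

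None of the 4 calls held under every alternative run. Without treated replicate 2, the liver with the highest count of 17 of the 19 synthesis enzymes among the treated livers, Mvd alone was called. The Mvd call was lost when any other HCC liver was left out (edgeR adjusted p 0.0822 to 0.164). Among left-out livers, Tm7sf2 lost its call only without treated replicate 2 (0.54). Without treated replicate 4, the liver with the lowest count of 15 of the 19, 8 genes were higher: Tm7sf2, Sc5d, Scap, Idi1, Ebp, Insig1, Msmo1 and Stard4. Without treated replicate 3 or untreated replicate 3, 2 genes were called, and without untreated replicates 2 and 4 there were 1 and 5. With libraries scaled to their totals alone, 2 genes were called, Mvd and Abcg1, both lower, while the median of all genes moved to -0.23. A test against the fold of 1.5 itself, edgeR's glmTreat, called none of the 28, whereas DESeq2 called 4.

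A further 5 genes had adjusted p under 0.05 with a fold short of 1.5: Idi1 (0.57, adjusted p 0.0405), Fdft1 (0.40, adjusted p 0.0418), Ebp (0.53, adjusted p 0.00711), Stard4 (0.55, adjusted p 0.0284) and Soat2 (0.50, adjusted p 0.00698). Soat2 was the most even of them over the treated livers, at 776, 726 and 756. The transport and storage genes thus gave no call by edgeR's test or by DESeq2's, with 3 of 5 at an unadjusted p under 0.05. Sqle (0.03), Lss (-0.06), Cyp51 (0.11), Pmvk (0.14) and Hmgcs1 (0.10) had treated livers on both sides of the untreated ones. Insig1 had 9647, 6682 and 5179 in treated livers (0.55, adjusted p 0.0656), and Msmo1 had 3072, 2321 and 1432 (0.51, adjusted p 0.0868), with replicate 4 under every untreated liver for Msmo1. Insig2 was at 5046, 5527 and 5119 (0.03, adjusted p 0.927), in the range of untreated livers.

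Treated livers differed among themselves over the route as a whole. Summed over the 19 synthesis enzymes, normalized counts were 72305, 62974 and 66066 in healthy, 35822, 34626 and 37771 in untreated and 53092, 41570 and 34521 in treated livers. The SD of the sum was 4753, 1588 and 9375 in the 3 groups. Treated replicates 2 and 3 lay between the other groups, and replicate 4 (34521) lay under the lowest untreated liver (34626). In CPM, with no scaling factor, the sums were 3247, 2807 and 2956 in healthy, 2126, 2179 and 2180 in untreated and 2720, 2016 and 1828 in treated livers, so that 2 treated livers lay under all untreated ones on that scale. The Insig1 to Insig2 ratio was 1.91, 1.21 and 1.01 in treated livers.

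**Figure D4:**
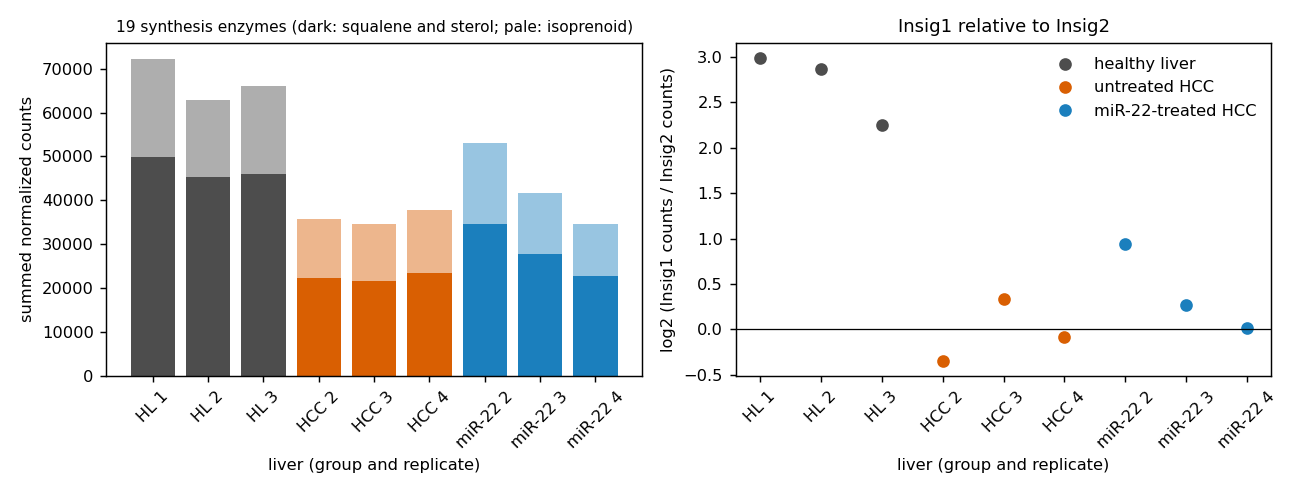
Left, summed normalized counts of the 19 synthesis enzymes in each liver, split into squalene and sterol enzymes (dark) and isoprenoid enzymes (pale), with the axis from 0. Right, log2 of Insig1 counts over Insig2 counts in each liver. Healthy livers are highest on both, and untreated livers are close together in the sum. In the log2 ratio the SD was 0.341 in untreated, 0.394 in healthy and 0.474 in treated livers. The 3 treated livers range from 53092 to 34521 in the sum.

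Hepatocyte markers summed to more in every treated than in every untreated liver, with 3 of 6 higher (Apoa1, Cps1 and Tat). Ductal markers summed to 676 to 1135 in treated livers, with 2 of 4 lower, stellate or fibroblast markers to 11320 to 13000, with 2 higher and 1 lower, and endothelial markers to 5187 to 6744, with 1 higher. Macrophage markers (7942 to 8480), neutrophil markers (132 to 234) and lymphocyte markers (102 to 156) gave no call by edgeR's test, with 3 macrophage markers and no other at an unadjusted p under 0.05, and 1 macrophage marker called by DESeq2. Their part in the sterol results was not tested.

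Compared with healthy liver, miR-22-treated HCC was also low in much of the route. This comparison shares its libraries with both others. Of the 28 genes, 14 were lower in miR-22-treated HCC than in healthy liver, where 7.05% of all tested genes were lower, and 2 were higher (Insig2 and Npc1l1), where 16.9% were. The other 12 did not pass. The median log2 change was -0.60 over the 28 genes and 0.02 over all genes. The lower genes were 8 of the 11 squalene and sterol genes, 3 isoprenoid genes (Pmvk, Mvd and Idi1), Scap, Insig1 and Stard4.

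Given side by side, Msmo1 was at -1.74 in untreated and -1.23 in treated HCC against healthy liver, Insig1 at -1.75 and -1.20, Stard4 at -1.55 and -1.01, Tm7sf2 at -1.67 and -0.97, and Pmvk at -1.05 and -0.91. Lss (-0.64 and -0.69) and Sqle (-0.78 and -0.75) were nearly as low in both. Mvd was at -0.23 in untreated and fell by 0.85 in treated HCC (SE 0.201, edgeR adjusted p 0.00566). Insig2 was higher by 1.04 and 1.06 (SE 0.173, adjusted p 4.94e-04 for treated). Npc1l1 had 49 counts over the treated livers, a ratio of 45.2 to healthy liver (95% interval 7.74 to 1821).

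Calls in 6 of these 14 genes (Pmvk, Tm7sf2, Msmo1, Hsd17b7, Insig1 and Stard4) held under every alternative run. The call of Idi1 was lost without treated replicate 4 (-0.45) or healthy replicate 3, where edgeR gave an adjusted p of 0.051, and that of Lss without treated replicate 4 (-0.58). Leaving out treated replicate 2 gave 18 lower genes and leaving out replicate 4 gave 12. glmTreat called 6 lower genes, without Mvd among them, and scaling to library totals 9. Hepatocyte markers were lower in 2 of 6 in this comparison (Alb and Cps1). Ductal markers were higher in 2 of 4, stellate or fibroblast markers in 3 of 6, macrophage markers in 3 of 8 and neutrophil markers in both tested, and 1 of 5 endothelial markers was lower (Kdr). Of 6 lymphocyte markers none was called by edgeR's test or by DESeq2's, and none had an unadjusted p under 0.05. The part of these markers was not tested.

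A wider list of 41 sterol-handling genes, all tested, was set beside the 28 genes. In untreated HCC 18 of them were lower and 3 higher than in healthy liver (median -0.305), where 18.1% and 22.7% of all tested genes were. In treated against untreated HCC 10 were higher and 1 lower (median 0.16), where 8.32% and 5.47% of all tested genes were. Against healthy liver, treated HCC had 9 lower and 2 higher (median -0.22), where 7.05% and 16.9% were, and without treated replicate 4 it had 2 lower and 1 higher. Erg28, the scaffold that holds Msmo1, Nsdhl and Hsd17b7 together, fell by 1.16 on the log2 scale in untreated HCC (SE 0.0912, edgeR adjusted p 5.32e-07) and was higher in treated than in untreated HCC by 0.73 (SE 0.0910, adjusted p 3.18e-04). Stard5, a sterol-binding protein, was at -1.84 and 1.20, and Gramd1b, which moves cholesterol from plasma membrane to endoplasmic reticulum, at 4.04 and -1.12, all 4 called. In treated against untreated HCC, the calls of Erg28 and Gramd1b were lost with glmTreat (adjusted p 0.272 and 0.153), and that of Erg28 also with library totals alone (0.49). Cyp7b1, an oxysterol hydroxylase of the alternative bile acid route, was higher by 1.51 in treated than in untreated HCC. Against healthy liver, treated HCC was at 2.92 for Gramd1b, -0.59 for Osbpl2, an oxysterol-binding protein, and -0.97 for Srebf1, the gene of SREBP-1, all called. The calls of Srebf1 (adjusted p 0.0743) and Osbpl2 were lost with glmTreat. Osbpl2 stood at the fold limit, and its call was also lost with library totals alone (-0.40), with upper-quartile factors, with no filter on low counts, with at least 10 counts in every library (-0.56), or without treated replicate 2 (-0.58), treated replicate 4 (-0.505), healthy replicate 1 (-0.57) or healthy replicate 2 (-0.58).

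Abcg5 and Abcg8, which export cholesterol into bile as a pair and were chosen after their values were seen, were at -1.51 and -2.405 in untreated HCC against healthy liver, and at 1.04 and 1.77 in treated against untreated HCC. All 4 changes were called, but that of Abcg5 in treated against untreated HCC was lost with glmTreat (adjusted p 0.0519).

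Another list held 15 genes that use isoprenoids for other ends, those of ubiquinone, dolichol and protein prenylation. In untreated HCC 2 were higher (Fntb, a farnesyltransferase subunit, 0.78, and Srd5a3, a reductase of dolichol synthesis, 0.62) and 1 was lower (Rabggta, a subunit of the enzyme that prenylates Rab proteins, -1.10), at a median log2 change of 0.04, where 22.7% of all tested genes were higher and 18.1% lower. The Srd5a3 call was lost without untreated replicate 2 (0.52), untreated replicate 4 (0.58) or healthy replicate 3 (0.54). The calls of Srd5a3 and Fntb were also lost with glmTreat. Between treated and untreated HCC none was called by edgeR's test or by DESeq2's, with 4 at an unadjusted p under 0.05, where 8.32% of all tested genes were higher and 5.47% lower. Without treated replicate 4 or untreated replicate 4, 1 was called. Against healthy liver, 1 was called in treated HCC, Srd5a3 at 0.62, where 16.9% of all tested genes were higher, and that call was lost with glmTreat and without treated replicate 4 (0.49) or healthy replicate 3 (0.54).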

How the data were processed

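RNA was made into NEBNext Ultra II non-directional libraries. Per the labels and the study's methods, the authors quantified reads with Salmon against GENCODE (quality checks with FastQC 0.11.7, tests with DESeq2 1.18) and deposited counts per gene as whole numbers, which were used here, and a table of normalized counts, which was not. The annotation release named fits an older build than the GRCm39 named, so gene coordinates here are those of GENCODE vM39 on GRCm39. Genes passing filterByExpr were fitted with edgeR 4.0.16 in R 4.3.3 (TMM, quasi-likelihood F test, all 9 libraries in 1 fit, two-sided, Benjamini-Hochberg over all genes tested). SE is the log2 change divided by the square root of F. Replicate pairs differed by 6.13 to 28.4 times the chi-square of counting noise, so none was a duplicate. p-values rest on the spread between mice, 3 per group, estimated for each gene over all 3 groups together. The groups did not spread alike: the SD of the enzyme sum was 1588 in untreated and 9375 in treated livers.

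The text names all 28 genes, up to 3 called genes of smallest p per comparison from each of the 2 wider lists, markers, and Abcg5 and Abcg8, chosen after their values were seen. The genes and lists were chosen with earlier results of these data known. Alternatives were other scalings, DESeq2 1.42.0, filters, call rules, a replicate block and leaving out each library. The alternatives for the wider lists were added after the data were seen. Scripts were tested on simulated counts.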

Additional observations from a re-analysis of the deposited data

How the results depend on the processing

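Of the sterol genes and the named genes of the wider lists, none that was called turned direction under an alternative run; the cause of lost calls was not tested. Directions of single genes outside these were not followed. In treated against untreated HCC, the 2167 genes called became 468 with glmTreat, 3777 with no fold threshold and 1433 to 2660 with 1 liver left out, and the 4 sterol genes became 0, 9 and 1 to 8. With library totals alone 2 sterol genes were called. Against healthy liver, the 3772 genes called in treated HCC became 2010 with glmTreat (8 sterol genes, from 16) and 5732 with no fold threshold. Library totals moved the split of higher to lower calls to 5986 and 1492 in untreated HCC against healthy liver, 835 and 2164 in treated against untreated HCC, and 3408 and 593 in treated HCC against healthy liver.

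Replicate numbers are shared by the HCC groups (2 to 4), but same-numbered livers did not deviate together (correlations -0.121, -0.131 and -0.235) and no liver correlated best with its own number. With the number as a replicate block, 958 genes and 0 of the 28 sterol genes were called between treated and untreated HCC, and 17 and 12 sterol genes in the comparisons of untreated and treated HCC with healthy liver. The block also ended these calls named for single genes: Lss (-0.53) and Cyp51 (-0.56) in untreated HCC against healthy liver, Gramd1b in treated against untreated HCC (edgeR adjusted p 0.0722), and Idi1 (-0.499), Fdft1 (-0.58), Lss (-0.49), Sc5d (-0.54), Osbpl2 (-0.48) and Srd5a3 (0.55) in treated HCC against healthy liver.

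Changes of uncalled genes near 0 turned sign. With library totals alone in untreated HCC against healthy liver these were Abca1 (0.29), Dhcr7 (0.15), Fdps (0.051), Mvd (0.19), Nsdhl (0.27) and Srebf2 (0.076), all under the shift of 0.43 in the median of all genes. In treated against untreated HCC they were Abca1 (-0.22), Acat2 (-0.046), Cyp51 (-0.13), Dhcr7 (-0.12), Fdps (-0.16), Hmgcs1 (-0.14), Insig2 (-0.20), Mvk (-0.14), Pmvk (-0.090) and Sqle (-0.21), where the median moved to -0.23. In treated HCC against healthy liver they were Abca1 (0.069) and Dhcr7 (0.026), where the median moved to 0.21. In treated against untreated HCC, DESeq2's size factors and test put Abca1 at -0.0031 and -0.0033, and upper-quartile factors put Abca1 at -0.017, Insig2 at -0.010 and Sqle at -0.010. With 1 liver left out there, the range was -0.037 to 0.12 for Abca1, -0.064 to 0.20 for Cyp51, -0.089 to 0.19 for Fdps, -0.15 to 0.12 for Ggps1, -0.15 to 0.28 for Hmgcs1, -0.19 to 0.18 for Insig2, -0.24 to 0.059 for Lss, -0.17 to 0.29 for Mvk and -0.15 to 0.13 for Sqle. Mvd ranged from -0.39 to 0.0061 in untreated HCC against healthy liver. Depth limits Npc1l1, which could not be tested with at least 10 counts in every library.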
